A study of Mus musculus with 6 samples.

Results

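The genes described encode protein components of the splicing machinery and the heterogeneous nuclear ribonucleoproteins (hnRNPs), in haematopoietic stem cells (HSCs). They were chosen by gene symbol alone, as the rows named Snrp (followed by a letter a to g or a digit), Sf3a or Sf3b, U2af, Prpf, Srsf or Hnrnp, with pseudogenes marked -ps left out. The rule gave 67 of the 19086 genes in the expression table. Of these, 37 encode proteins of the small nuclear ribonucleoprotein particles (snRNPs) or their partners, 10 are serine/arginine-rich (SR) factors and 20 are hnRNPs. One of the 37, Snrpert, is annotated as a processed pseudogene, and its reads may be shared with Snrpe.

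RNA was sequenced from HSCs labelled Zfp521-CKO and from HSCs labelled Zfp521fl/fl, with 3 libraries of each genotype. Zfp521fl/fl, homozygous for a floxed allele of the zinc finger gene Zfp521, was the control, and Zfp521-CKO is described as Zfp521-deficient; the Cre driver is not given in the sources used here. Bone marrow of CD45.2 donors of the C57BL/6 strain had been transplanted into lethally irradiated CD45.1 recipients, and 2 months later HSCs were sorted as CD150+ CD48- lineage-negative Sca-1+ Kit+ cells. The labels do not tie the libraries to separate recipients. The p-values set a difference only against the spread of libraries within a genotype, moderated over all genes, and that spread may be technical. The comparison asks which genes differ in HSCs that lack Zfp521.

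Introns are removed from pre-mRNA by the spliceosome, which is assembled on each intron from the U1, U2, U4, U5 and U6 snRNPs. Each snRNP carries an RNA with a ring of proteins, which are Sm proteins except on U6 RNA, where they are Lsm proteins. Further proteins recognise the splice sites, bring the particles together and drive their rearrangement. SR proteins bind exons and favour the use of nearby splice sites, whereas many hnRNPs coat nascent RNA and often oppose them. The balance of both families sets alternative splicing, and SF3B1, SRSF2 and U2AF1 are splicing factor genes that are recurrently mutated in human myelodysplastic syndromes.

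The libraries differed in depth and composition. The totals of whole reads that the values give back were 55798660, 30455925 and 3117648 for Zfp521-CKO replicates 1, 2 and 3, and 10599336, 7310348 and 7409301 in Zfp521fl/fl replicates 1, 2 and 3. Zfp521 itself had 1519, 126 and 0 reads in Zfp521-CKO and 0, 3 and 0 in Zfp521fl/fl (limma adjusted p = 0.67), which goes against the labels; the deleted part of the gene is not given in the sources used here. Every direction given here is therefore between libraries as they were labelled. Of 14 HSC markers, 14, 13 and 8 had reads in Zfp521-CKO replicates 1, 2 and 3 and 6 in each control, and Procr, Slamf1 (which encodes CD150), Fgd5, Hoxb5, Tek and Ctnnal1 were at 0 in every control. The 14 took 0.143%, 0.154% and 0.0244% of the reads in Zfp521-CKO and 0.0076%, 0.145% and 0.0124% in the controls. For the 15 neutrophil markers the share was 0.0365%, 1.47% and 13.01% in Zfp521-CKO, against 15.3%, 12.8% and 14.1% in the controls. Markers of monocytes took 0.0113% to 0.146% against 0.0897% to 0.189%, of erythroid cells 0.0343% to 0.165% against 0.0753% to 0.421%, and of megakaryocytes 0% to 0.0406% against 0.0081% to 0.0891%. B cell markers took at most 0.0137% and T cell markers at most 0.0194% in any library. The library labelled Zfp521-CKO replicate 3 thus stood apart from replicates 1 and 2 in depth and in its neutrophil share.

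Splicing genes were among the better covered genes of the table. Reads were found in all 6 libraries for 46 of the 67 members (68.7%), against 3140 of all 19086 genes (16.5%). By group this held for 22 of 37 snRNP members, 8 of 10 SR members and 16 of 20 hnRNP members. All 67 had reads in each of replicates 1 and 2 labelled Zfp521-CKO and 55 in replicate 3, against 62, 54 and 57 in Zfp521fl/fl replicates 1, 2 and 3. Over all genes the share with reads was 87.4%, 74.9% and 33.8% in Zfp521-CKO, against 52.9%, 32.1% and 39.2% in the controls. Members seen in Zfp521-CKO and in no control were 2 of 67 (2.99%), Prpf4 and Prpf40b, compared with 6795 of all genes (35.6%). No member was seen in the controls alone. At the total of the shallowest library, Zfp521-CKO replicate 3, the number of members expected with reads was 66.9 and 66.3 in Zfp521-CKO replicates 1 and 2, against 62.0, 52.2 and 56.5 in the controls. As shares these were 99.8% and 98.9%, against 92.5%, 77.9% and 84.3%. Over all genes the expected shares were 76.4% and 66.3%, against 47.8%, 29.2% and 36.55%, so the gap was not particular to the members. A count of 0 allows up to 3 reads, which is a log2 value of 0.57, 0.95 and 3.96 in Zfp521-CKO replicates 1, 2 and 3 and of 2.07, 2.74 and 2.80 in the controls, and covers counting error only.

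**Figure D1:**
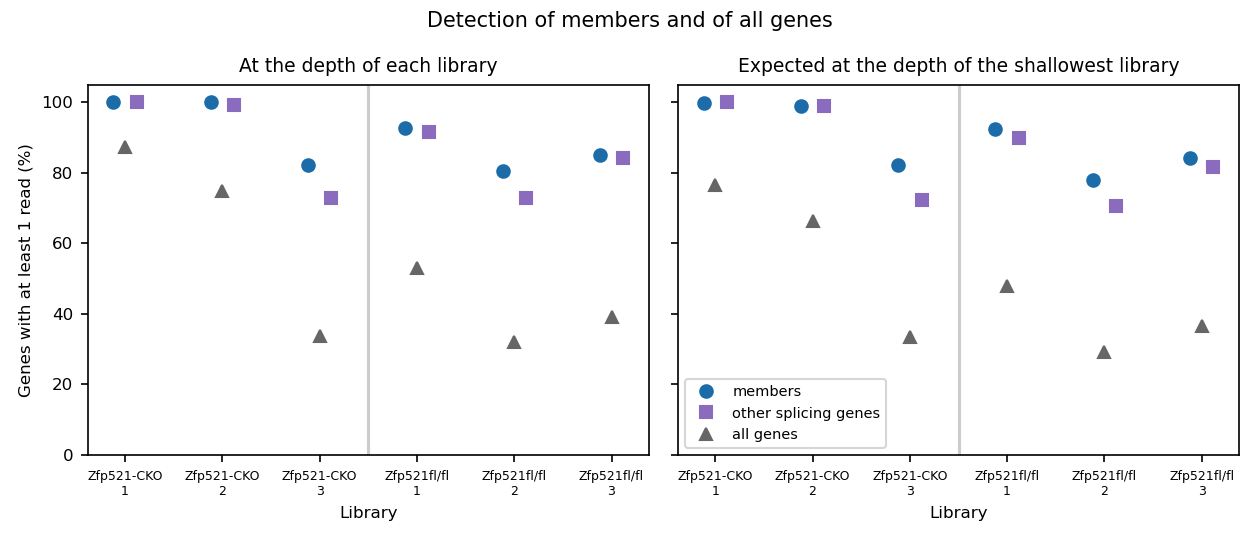
Percentage of genes with at least 1 read in each library (x axis, Zfp521-CKO libraries left), for the 67 members (circles), 107 other splicing genes (squares) and all 19086 genes (triangles). The left panel is at the depth of each library and the right panel is the number expected at the depth of the shallowest library, 3117648 reads. Members stayed at 80.6% or more in every library of the left panel, while all genes ranged from 32.1% to 87.4%.

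Together the 67 genes took 1.23%, 1.27% and 0.625% of the reads in Zfp521-CKO replicates 1, 2 and 3, and 0.919%, 0.965% and 0.787% in the controls. Replicates 1 and 2 labelled Zfp521-CKO were therefore above every control and replicate 3 was below. snRNP members took 0.628%, 0.601% and 0.360% in Zfp521-CKO, against 0.3996%, 0.404% and 0.323% in the controls. SR members took 0.286%, 0.286% and 0.155%, against 0.194%, 0.210% and 0.166%. hnRNP members took 0.317%, 0.384% and 0.110%, against 0.326%, 0.352% and 0.298%, so replicate 3 labelled Zfp521-CKO held the lowest hnRNP share of the 6 libraries. The share of the neutrophil markers was lowest in the same libraries, replicates 1 and 2 labelled Zfp521-CKO, and its part in the result was not tested. In bulk RNA, fewer cells of a type and less RNA per cell cannot be told apart.

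**Figure D2:**
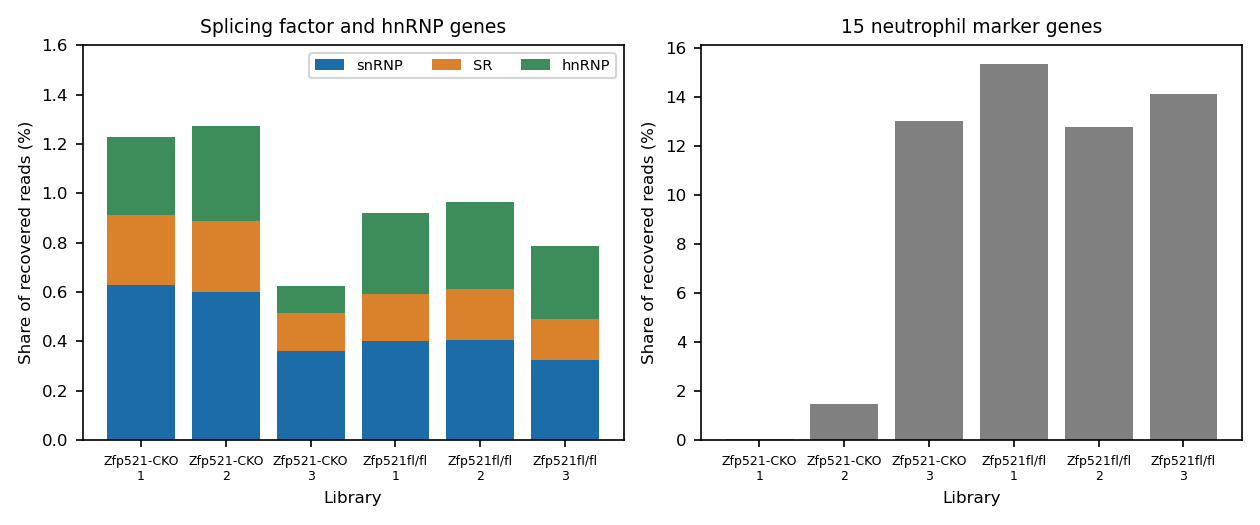
Share of recovered reads (y axis, %) per library (x axis, Zfp521-CKO libraries left). The left panel stacks snRNP, SR and hnRNP members, whose sum was highest in Zfp521-CKO replicate 2 (1.27%) and lowest in Zfp521-CKO replicate 3 (0.625%). The right panel shows the 15 neutrophil markers, at 0.0365% and 1.47% in Zfp521-CKO replicates 1 and 2 and at 12.8% to 15.3% in the controls.

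No splicing gene passed the test between the genotypes. In limma's test over 16436 genes, an adjusted p under 0.05 was reached by 0 genes (0.0%) and an unadjusted p under 0.05 by 917 (5.58%, and 5.09% when only genes higher in Zfp521-CKO are counted). Among the 67 members, all of which were tested, 0 had an adjusted p under 0.05 and 1, Prpf4, had an unadjusted p under 0.05 (1.49%). With voom on the recovered reads 161 genes were called, and 2530 without Zfp521-CKO replicate 3, with Prpf4 as the single member in both. The groups did not overlap for 5 members (7.46%), against 9.22% of all genes tested. They were Prpf4 and Sf3b2, higher in Zfp521-CKO as 7.17% of all genes were, and Hnrnpa1, Hnrnpul1 and Hnrnpul2, lower as 2.05% were. Of the 46 members with reads in every library, 3 had groups that did not overlap (6.52%), against 13.6% of the 3070 genes with whole reads in every library.

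The 3 families differed in the direction of their medians. A higher mean in Zfp521-CKO was found for 44 of 67 members (65.7%), against 73.6% of all genes tested, and for 37 members with quantile normalization and 53 under voom. By family, 29 of 37 snRNP members and 9 of 10 SR members had a higher mean, while 14 of 20 hnRNP members had a lower one. The median log2 difference was 0.64 for snRNP members, 0.90 for SR members and -0.73 for hnRNP members, though that of the hnRNPs was 0.04 under voom on the recovered reads. Over all 67 it was 0.46, against 1.63 over all genes tested, but with quantile normalization these medians were 0.25 and 0.22, and without Zfp521fl/fl replicate 2 they were 0.09 and 1.34. Among genes with reads in all 6 libraries the medians were 0.38, 0.62 and -0.84 for snRNP, SR and hnRNP members and 0.03 for all genes. There the median of all members was 0.11, and a higher mean was found for 26 of 46 members and 1601 of 3140 genes. With Zfp521-CKO replicate 3 left out, the snRNP and hnRNP medians were 1.70 and -0.21. Without Zfp521fl/fl replicate 2 the SR median was 0.09 and the snRNP median 0.36, and without Zfp521fl/fl replicate 3 the hnRNP median was -0.38. These are descriptions, and no test was made of the difference between families. The limma standard error of a member had a median of 1.70 log2 units, or 1.26 for members with reads in all 6 libraries, so a difference of the size of these medians was not detectable for a single gene.

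**Figure D3:**
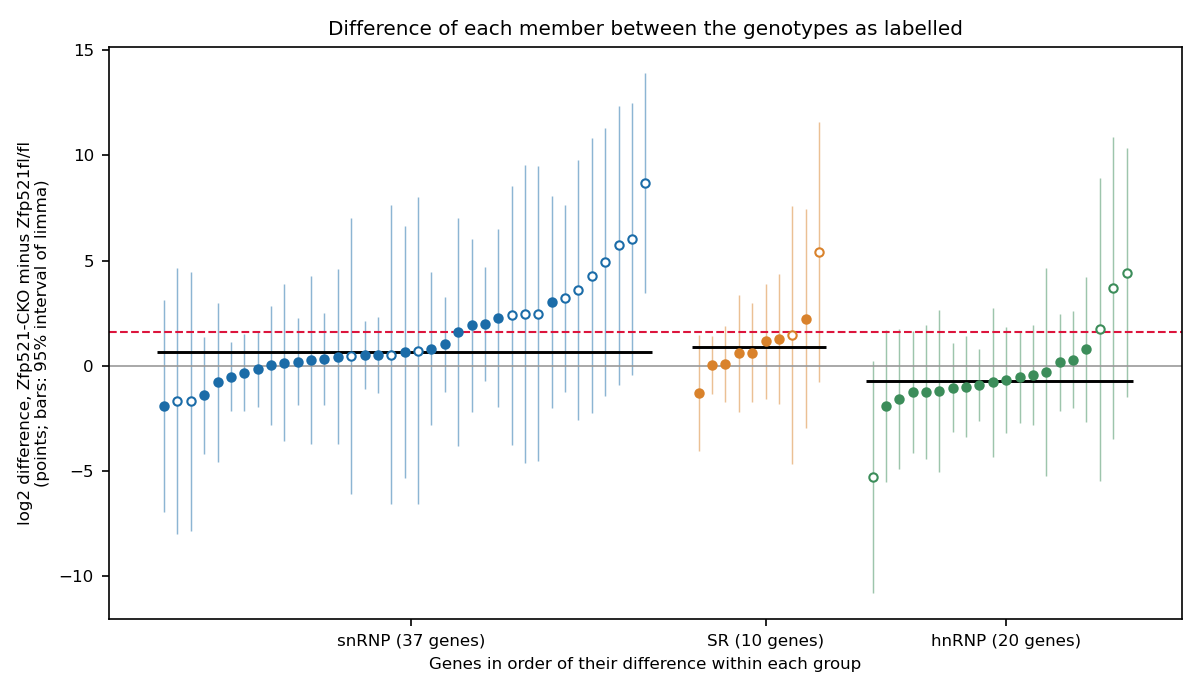
log2 difference of each of the 67 members (y axis, Zfp521-CKO minus Zfp521fl/fl, 3 libraries each, bars the 95% interval of limma), in order within each family (x axis). Filled points are genes with reads in all 6 libraries, open points are genes at 0 in at least 1 library, black lines are family medians (0.64, 0.90 and -0.73) and the dashed line is the median over all genes tested (1.63). The interval of Prpf4, the highest point, is the only one that does not include 0.

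The promoters of the members were examined for shared letters, with sequences and starts from RefSeq on GRCm38.p6, which is not the mm9 build of the counts. Promoters were listed for 57 of the 67, and the 250 bases before the first listed start were searched on both strands. The ETS core CCGGAAG was present in 17 of 57 (29.8%), against 7.1% of 27025 promoters and 16.2% of the 1681 promoters of genes with reads in all 6 libraries. The GC box GGGCGG was present in 66.7%, against 32.9% and 59.4%, the CCAAT box CCAAT in 47.4%, against 34.5% and 36.0%, and the TATA box TATAAA in 5 of 57, against 3504 of 27025 and 134 of 1681. Members had a median of 20 CpG dinucleotides in the window, against 6 over all promoters and 17 in promoters of genes with reads in all 6 libraries. Those of 4 members are shown, Prpf4 as the only member with reads in every Zfp521-CKO library and in no control, Hnrnpul1 as an hnRNP whose groups did not overlap, and Sf3b6 and Srsf3 as even members. They run 5' to 3' and end at the base before the start, and capitals mark any of the 4 motifs in either orientation, which can overlap. The windows are chr4:62408533-62408782, plus strand, chr7:25754760-25755009, minus strand, chr12:4817358-4817607, plus strand and chr17:29032410-29032659, plus strand.
Prpf4: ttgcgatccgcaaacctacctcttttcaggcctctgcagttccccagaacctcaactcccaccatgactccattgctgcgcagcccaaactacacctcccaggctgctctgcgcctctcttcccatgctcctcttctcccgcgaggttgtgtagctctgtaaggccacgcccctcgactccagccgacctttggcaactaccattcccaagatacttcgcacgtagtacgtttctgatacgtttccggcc
Hnrnpul1: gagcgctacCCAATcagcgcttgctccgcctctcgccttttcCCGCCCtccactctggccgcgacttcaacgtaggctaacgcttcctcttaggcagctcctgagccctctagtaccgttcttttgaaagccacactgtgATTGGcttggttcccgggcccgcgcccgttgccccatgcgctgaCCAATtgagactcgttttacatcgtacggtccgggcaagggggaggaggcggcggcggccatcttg
Sf3b6: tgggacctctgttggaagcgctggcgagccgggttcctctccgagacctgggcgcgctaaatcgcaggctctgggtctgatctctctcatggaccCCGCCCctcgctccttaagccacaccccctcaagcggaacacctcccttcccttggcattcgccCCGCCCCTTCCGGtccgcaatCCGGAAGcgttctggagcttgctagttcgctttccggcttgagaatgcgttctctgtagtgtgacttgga
Srsf3: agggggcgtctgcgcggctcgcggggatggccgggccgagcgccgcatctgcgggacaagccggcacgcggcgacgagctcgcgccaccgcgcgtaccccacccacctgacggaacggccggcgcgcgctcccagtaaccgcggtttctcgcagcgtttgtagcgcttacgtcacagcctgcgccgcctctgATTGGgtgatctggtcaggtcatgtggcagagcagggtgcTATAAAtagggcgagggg
Prpf4 held none of the 4 motifs and 14 CpG, Hnrnpul1 held 3 CCAAT boxes and 1 GC box with 22 CpG, Sf3b6 held 2 ETS cores and 2 GC boxes with 19 CpG, and Srsf3 held 1 CCAAT box and 1 TATA box with 35 CpG. A match describes these letters and not a bound site.

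Genes of the Sm ring, the core of the snRNPs other than U6, had reads in every library. Their spread was smaller at the median than that of members with reads in all 6 libraries, though not for each gene. Snrpb, which encodes SmB, was at log2 normalized counts of 13.10, 12.25 and 11.89 in Zfp521-CKO and 11.65, 12.22 and 11.81 in Zfp521fl/fl. The groups overlapped, with a log2 difference of 0.52 (limma SE 0.73, adjusted p = 0.75). Snrpe was at 11.76, 11.86 and 12.05 in Zfp521-CKO and 13.19, 12.43 and 11.58 in the controls, 1 control below and the others above the Zfp521-CKO range (difference -0.51, SE 0.75, adjusted p = 0.77). Snrpf, another Sm protein, was at 11.60, 11.66 and 12.16 in Zfp521-CKO and 10.73, 9.21 and 12.42 in the controls. Its 3 Zfp521-CKO values lay close together, while the controls spanned over 3 units around them (difference 1.02, SE 1.03, adjusted p = 0.67). Snrpd3, named after its values were seen, was uneven among the controls, with 8.98, 9.55 and 10.81 in Zfp521-CKO and 7.37, 12.03 and 7.47 in Zfp521fl/fl. All 8 Sm rows, Snrpert included, had reads in all 6 libraries, and their differences ran from -0.51 to 1.02 with a median of 0.25. The remaining rows, Snrpd1, Snrpd2, Snrpg and Snrpert, differed by -0.16, 0.21, -0.32 and 0.28. The range of a gene over the 6 libraries had a median of 1.94 log2 units in the Sm core. It was 3.34 in the 46 members with reads in every library and 4.29 in the 3070 genes with whole reads in every library. Snrpd3 ranged over 4.66 units.

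The proteins that recognise the 5' splice site and the branch point varied more. Snrpc, a U1 protein, was at 10.67, 9.50 and 9.97 in Zfp521-CKO and 9.14, 1.53 and 10.34 in the controls, where the low value of replicate 2 is that of 1 read. Its difference was 3.04 (SE 2.28, adjusted p = 0.67). Sf3b1, the large scaffold of the SF3b complex that holds the branch point, was at 11.16, 12.71 and 11.37 in Zfp521-CKO and 9.99, 11.40 and 12.85 in the controls, so the groups overlapped (difference 0.33, SE 0.99, adjusted p = 0.90). Sf3b2, a subunit of the same complex, was at 10.98, 11.50 and 12.10 in Zfp521-CKO and 7.50, 10.19 and 10.93 in the controls. The groups did not overlap, but the highest control lay only just below the lowest Zfp521-CKO library (difference 1.99, SE 1.23, adjusted p = 0.62). Sf3b6, which lies close to the branch point adenosine, was at 11.94, 11.99 and 11.94 in Zfp521-CKO and 12.01, 10.54 and 11.77 in the controls. Its Zfp521-CKO libraries had an SD of 0.03 around 11.96, and the difference was 0.52 (SE 0.83, adjusted p = 0.79). Of the 13 members of this set, 11 had a higher mean in Zfp521-CKO, the exceptions being Sf3b5 and Snrpa with differences of -0.77 and -1.67. The SF3a subunits Sf3a1, Sf3a2 and Sf3a3 differed by 0.53, 2.46 and 0.64, and Sf3b3 and Sf3b4 by 0.02 and 0.46. The U2 proteins Snrpa1 and Snrpb2, which bind each other on U2 RNA, differed by 1.604 and 2.27. Both were low in Zfp521fl/fl replicate 2, at 2.74 and 3.84, from 3 and 7 reads. Snrpa1 was at 11.05 and 8.10 in the other controls and at 10.53, 10.86 and 5.32 in Zfp521-CKO. Snrpb2 was at 11.76 and 9.87 in the other controls and at 10.44, 10.72 and 11.12 in Zfp521-CKO. Sf3a1, Sf3a2, Sf3b4 and Snrpa were at 0 in Zfp521-CKO replicate 3, and Sf3a1 and Sf3a2 also in Zfp521fl/fl replicate 2. The median difference of the 13 was 0.53, or 2.09 without Zfp521-CKO replicate 3 and 0.07 without Zfp521fl/fl replicate 2.

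U2AF marks the 3' end of the intron, U2af2 on the polypyrimidine tract and U2af1 on the terminal AG. U2af1 was at 9.69, 8.88 and 0 in Zfp521-CKO and 8.42, 7.995 and 0 in the controls. Thus 1 library of each genotype lacked reads, and the difference was 0.72 (SE 3.32, adjusted p = 0.94). U2af2 was at 6.21, 5.98 and 3.96 in Zfp521-CKO and 9.69, 5.13 and 7.04 in the controls, within whose spread 2 of the 3 Zfp521-CKO values lay, with a difference of -1.90 (SE 2.28, adjusted p = 0.71). U2af1l4, a paralogue of U2af1, was at 8.42, 6.28 and 0 against 3.89, 0 and 0. Without Zfp521-CKO replicate 3 the differences of U2af1, U2af2 and U2af1l4 were 3.81, -1.19 and 6.05.

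PRPF genes were the least evenly covered members, with reads in all 6 libraries for 4 of 13. They encode factors first known from yeast pre-mRNA processing mutants, most of them parts of the U4/U6.U5 tri-snRNP or of complexes that act beside it. Prpf4 (ENSMUSG00000066148), a WD40 repeat protein of the U4/U6 snRNP, was at 8.48, 9.92 and 7.65 in Zfp521-CKO, from 2218, 3101 and 41 reads, and at 0 in all controls. Against a floor of 3 reads in each control library, the means of the log2 values differ by at least 70.9-fold. That bound covers counting error in the controls only, and not the spread of the libraries. The limma difference was 8.68 (SE 2.38, adjusted p = 0.61). Every Zfp521-CKO library had reads and no control did, and its promoter, printed with those of 3 other members, held none of the motifs searched. The adjusted p was 0.0083 without Zfp521-CKO replicate 3, 0.030 under voom and 0.047 with weights per library, and lay between 0.53 and 0.82 in the other alternatives. Prpf4 is 1 of 6795 genes with reads in Zfp521-CKO libraries only. Prpf38a, which acts when the spliceosome is activated, was at 9.35, 5.10 and 11.37 in Zfp521-CKO and 7.72, 0 and 0 in the controls (difference 6.03, SE 2.93, adjusted p = 0.61). Prpf8, the large protein at the catalytic centre, was at 8.63, 6.78 and 6.94 against 9.47, 0 and 0. The control with reads lay above every Zfp521-CKO library, so the difference of 4.29 (SE 2.98, adjusted p = 0.67) rests on the other 2 controls. Prpf38b was at 7.30, 11.04 and 10.49 in Zfp521-CKO and 7.64, 10.02 and 5.35 in the controls, which overlapped. Prpf4b, a kinase of splicing factors, went the other way, with 9.15, 9.83 and 9.90 against 11.35, 9.08 and 12.61 (difference -1.39, SE 1.26, adjusted p = 0.67). As a set, 11 of 13 had a higher mean in Zfp521-CKO. The median difference was 2.49, or 3.95 without Zfp521-CKO replicate 3, beside 1.63 and 2.64 over all genes tested. For the 4 with reads in all 6 libraries, 3 higher and 1 lower, the median was 0.29, beside 0.03 over all such genes. Of the 13 genes 3 were at 0 in Zfp521-CKO replicate 3, against 3, 7 and 6 in Zfp521fl/fl replicates 1, 2 and 3. Differences of the tri-snRNP proteins Prpf3, Prpf31 and Prpf6 were 5.72, 4.93 and 2.49, each with 1 or more controls at 0. Coverage was also low in Zfp521-CKO, where Prpf3 had 3 reads in replicate 2 (0.95). In Zfp521-CKO replicate 3, Prpf31 had 3 reads (3.96) and Prpf6 was at 0. Prpf18, a factor of the second step, Prpf19, the ubiquitin ligase of the complex named after it, and Prpf39 differed by 0.15, 0.43 and -1.68. Prpf40b, a homologue of a U1 protein of yeast, differed by 3.20. Prpf39 and Prpf40b were also at 0 in Zfp521-CKO replicate 3.

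**Figure D4:**
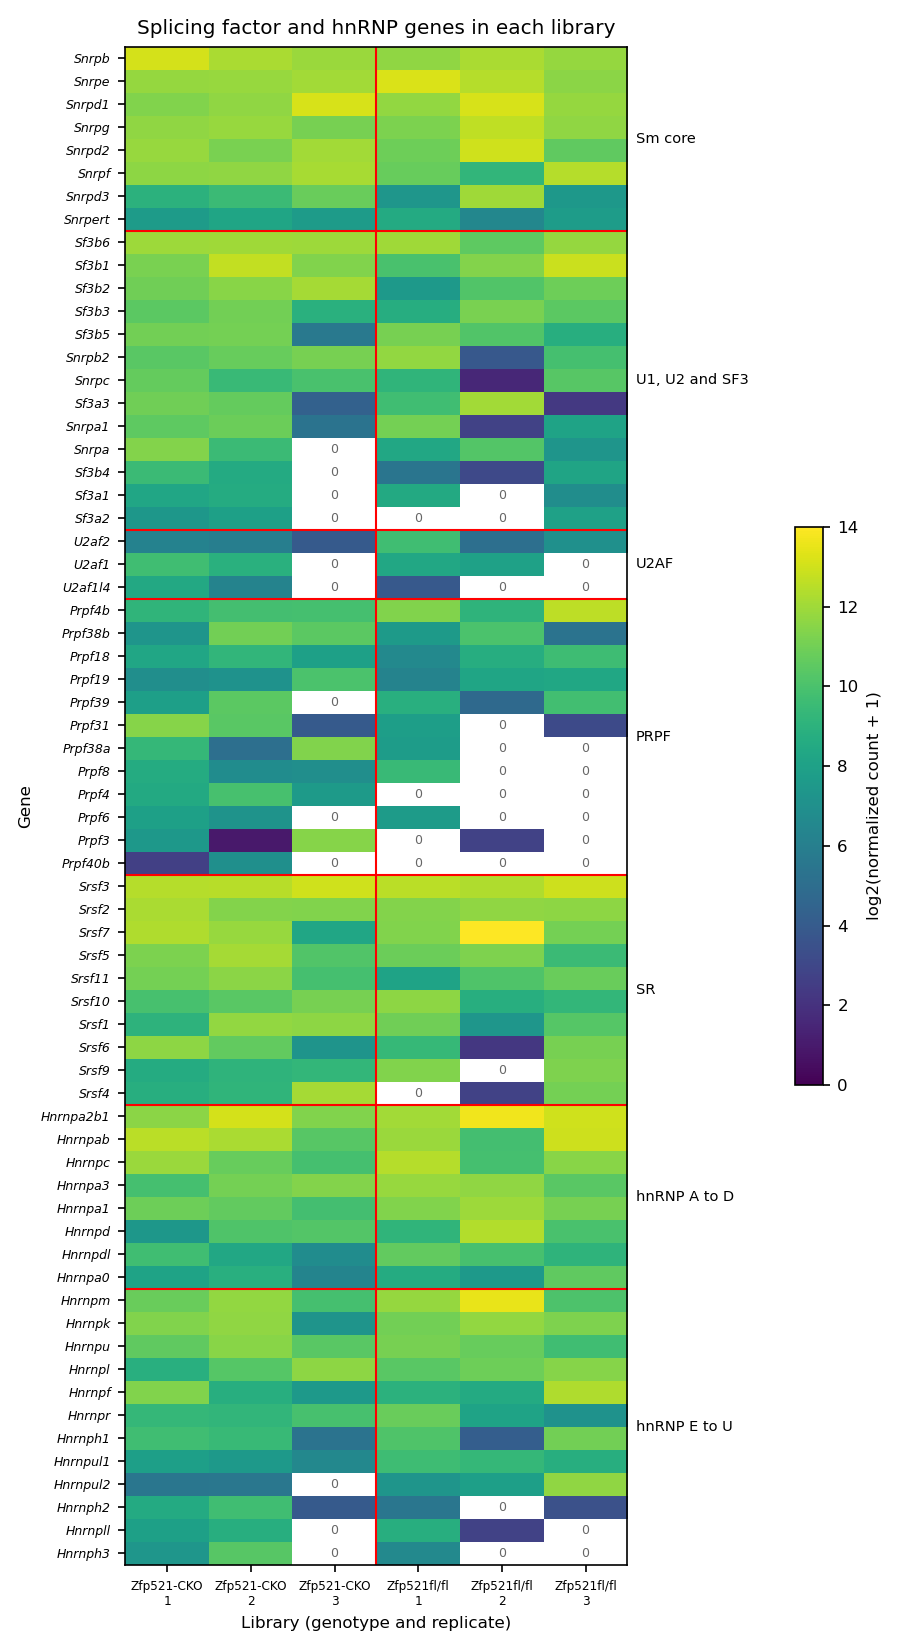
log2(normalized count + 1) of 66 of the 67 members (rows, by role and mean) in the 6 libraries (columns, Zfp521-CKO left of Zfp521fl/fl), with values of 0 in white. The PRPF block and the lower rows of the U1, U2 and SF3 block hold most of the zeros, while the Sm, SR and hnRNP A to D blocks hold values above 0 in nearly every library.

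SR genes held the steadiest members. Srsf3, which encodes a small SR protein that also links splicing to mRNA export, was at 12.43, 12.48 and 12.96 in Zfp521-CKO and 12.54, 12.35 and 12.92 in the controls. Over the 6 libraries its SD was 0.26 log2 units, rank 14 from the lowest of 3070 genes with whole reads in every library, and the difference was 0.02 with a 95% interval of -1.36 to 1.401 (adjusted p = 0.99). Srsf2 was at 12.23, 11.38 and 11.32 in Zfp521-CKO and 11.38, 11.69 and 11.64 in the controls. It ranked 35 by the same measure, and its difference of 0.08 had a 95% interval of -1.73 to 1.88 (adjusted p = 0.98). Srsf1, the founding SR protein, was at 9.06, 11.75 and 11.62 in Zfp521-CKO and 10.95, 7.38 and 10.31 in the controls, with overlap (difference 1.26, SE 1.41, adjusted p = 0.69). Srsf7 was at 12.35, 11.84 and 8.31 against 11.36, 13.99 and 11.06, with the lowest value of the 6 in Zfp521-CKO replicate 3 and the highest in Zfp521fl/fl replicate 2 (difference -1.30, SE 1.26, adjusted p = 0.67). That difference was -0.04 without Zfp521-CKO replicate 3, -0.38 without Zfp521fl/fl replicate 2 and 0.38 under voom. Srsf4 was at 8.80, 9.18 and 12.09 in Zfp521-CKO and 0, 2.74 and 11.10 in the controls. Zfp521fl/fl replicate 3 lay above 2 of the 3 Zfp521-CKO libraries, and the difference was 5.41 (SE 2.82, adjusted p = 0.61). Srsf9, named after its values were seen, was at 8.60, 9.11 and 9.26 in Zfp521-CKO, close together and below 2 controls at 11.33 and 11.27, while Zfp521fl/fl replicate 2 was at 0. Its difference of 1.46 was -2.31 without that control. The other SR members, Srsf5, Srsf6, Srsf10 and Srsf11, had reads in every library and differences of 0.63, 2.25, 0.60 and 1.16, each with groups that overlapped. Srsf6 had only 2 reads in Zfp521fl/fl replicate 2, a value of 2.26. It was at 9.35 and 11.14 in the other controls and at 11.60, 10.64 and 7.25 in Zfp521-CKO.

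The A to D hnRNPs, which bind nascent transcripts most broadly, were lower on average in Zfp521-CKO for 7 of 8 members, with a median difference of -0.96. Without Zfp521-CKO replicate 3 this was 6 of 8 members and a median of -0.64. Hnrnpa1 (ENSMUSG00000046434), a repressor of splice sites with many processed copies that could share its reads, was at 10.91, 10.64 and 9.84 in Zfp521-CKO and 11.36, 11.97 and 11.14 in the controls. All 3 Zfp521-CKO libraries were below all 3 controls (difference -1.03, SE 0.97, adjusted p = 0.67). Hnrnpa2b1, a close relative of Hnrnpa1, was at 11.56, 13.12 and 11.32 in Zfp521-CKO and 12.05, 13.67 and 12.97 in the controls. The groups overlapped through Zfp521-CKO replicate 2 (difference -0.90, SE 0.78, adjusted p = 0.67, and -0.56 without Zfp521-CKO replicate 3). Hnrnpab was the exception in direction, at 12.55, 12.20 and 10.38 against 11.91, 9.79 and 12.91 (difference 0.17, SE 1.05, adjusted p = 0.96, and 0.84 without Zfp521-CKO replicate 3). Hnrnpa0, Hnrnpa3, Hnrnpc, Hnrnpd and Hnrnpdl differed by -1.19, -0.52, -0.44, -1.23 and -1.57, and the groups overlapped for each.

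Among the other hnRNPs, 7 of 12 were lower on average with a median difference of -0.49, and without Zfp521-CKO replicate 3 this was 4 of 12 and a median of 0.34. Hnrnpul1 (ENSMUSG00000040725), a relative of hnRNP U, was at 7.90, 7.56 and 6.55 in Zfp521-CKO and 9.63, 9.31 and 8.77 in Zfp521fl/fl. Every Zfp521-CKO library was below every control and the SDs were 0.71 and 0.44 (n = 3 each), yet the difference of -1.90 had a moderated SE of 1.65 (adjusted p = 0.67). Hnrnpul2, its paralogue, was at 5.50, 5.56 and 0 in Zfp521-CKO and 7.29, 7.92 and 11.65 in the controls. The groups did not overlap here either, and the difference was -5.27 (SE 2.51, adjusted p = 0.61), or -3.43 without Zfp521-CKO replicate 3, which was at 0. Hnrnpk, which binds C-rich RNA, was at 11.36, 11.68 and 7.25 in Zfp521-CKO and 11.02, 11.71 and 11.31 in the controls. Replicates 1 and 2 labelled Zfp521-CKO lay within the range of the controls, so its difference of -1.25 comes from replicate 3 and was 0.17 without it and 0.33 under voom (SE 1.32, adjusted p = 0.68 with it). Hnrnpm was at 10.80, 11.75 and 9.88 against 11.79, 13.51 and 10.08, and Hnrnpu, a nuclear scaffold protein, at 10.56, 11.50 and 10.44 against 11.14, 10.75 and 9.71. The groups overlapped for both, with differences of -0.98 and 0.30, or -0.52 and 0.50 without Zfp521-CKO replicate 3. Hnrnph2 was on the other side, at 8.54, 9.71 and 3.96 in Zfp521-CKO and 5.48, 0 and 3.45 in the controls (difference 4.43, SE 2.69, adjusted p = 0.62). Its paralogues Hnrnph1, Hnrnph3 and Hnrnpf, which bind G-rich RNA, differed by -0.30, 3.70 and -0.78. Hnrnph3 was at 0 in Zfp521-CKO replicate 3 and in Zfp521fl/fl replicates 2 and 3. Hnrnpl and its paralogue Hnrnpll, which bind CA repeats, differed by -0.68 and 1.73, and Hnrnpr by 0.79. Hnrnpll was at 0 in Zfp521-CKO replicate 3 and Zfp521fl/fl replicate 3, and had 3 reads in Zfp521fl/fl replicate 2.

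Much of the hnRNP pattern lay in 1 library. Zfp521-CKO replicate 3 was below the control mean for 16 of 20 hnRNP members and below every control for 10. Replicates 1 and 2 were below the control mean for 10 and 11 and below every control for 7 and 5. Over all 67 members, replicates 1, 2 and 3 were below every control for 8, 6 and 18. The same counts were not made over all genes, so these describe the libraries and are not a result about hnRNPs. The median hnRNP distance from the control mean was -0.08, -0.08 and -1.78 log2 units in Zfp521-CKO replicates 1, 2 and 3. Within the A to D hnRNPs the same medians were -0.70, -0.29 and -1.50, so all 3 libraries lay below the control mean there. For snRNP members they were 1.44, 1.96 and -0.04, with replicate 3 again the lowest of the 3. Zfp521-CKO replicate 3 was also the shallowest library and held the highest neutrophil marker share of the 3, and the part of either in the result was not tested.

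**Figure D5:**
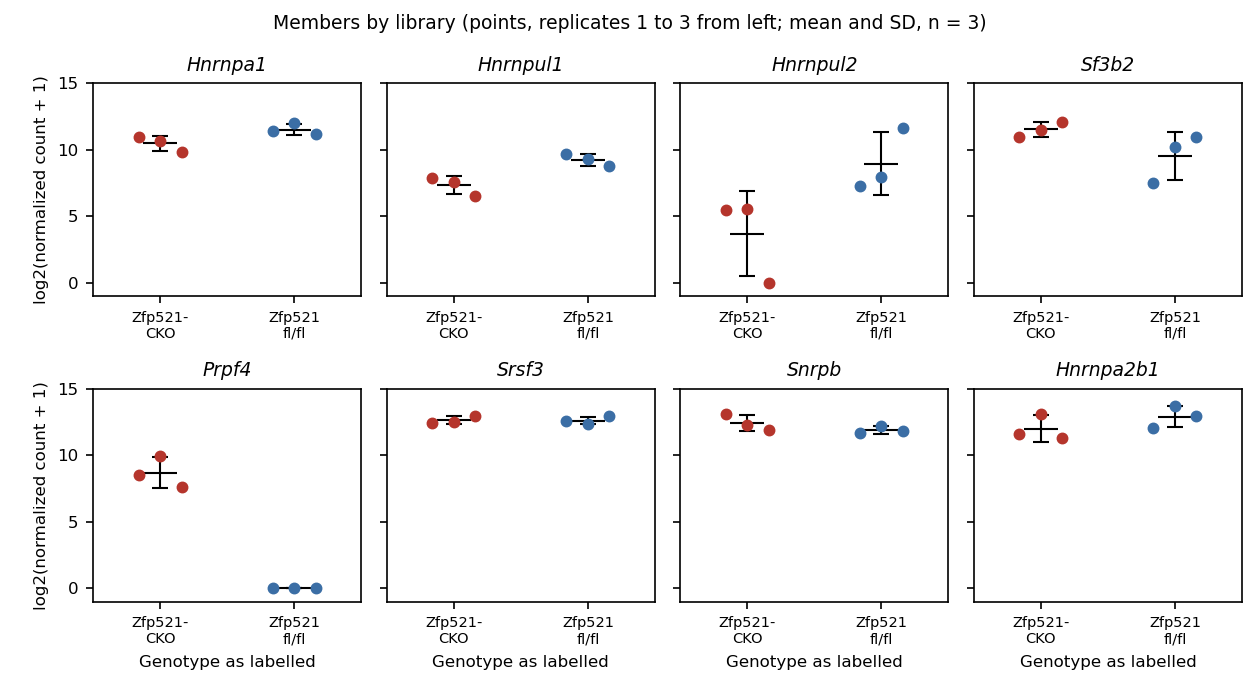
log2(normalized count + 1) of 8 members (panels) in each library (points, replicates 1 to 3 from left), with mean and SD (n = 3) for Zfp521-CKO (left) and Zfp521fl/fl (right). The 3 Zfp521-CKO points of Hnrnpa1, Hnrnpul1 and Hnrnpul2 lie below all controls, those of Sf3b2 and Prpf4 lie above them, and Srsf3 stays between 12.35 and 12.96 in all 6 libraries.

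Levels of the members were compared with each other after division by the exon length of the gene in GENCODE M21. By the median over 6 libraries of log2(normalized count per kb + 1), the highest members were Snrpf at 11.85, Snrpe at 11.50, Snrpb at 11.08, Snrpg at 11.003 and Snrpd1 at 10.72, all of the Sm ring. Hnrnpab at 10.58 and Sf3b6 at 10.43 followed. These neighbours do not differ beyond their spread, since Snrpf alone ranged from 9.43 to 12.63 on that scale. Srsf2 at 9.95 and Hnrnpa2b1 at 9.79 led the SR and the remaining hnRNP members.

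The wider splicing machinery was read the same way. A list of 107 further genes of the spliceosome and of splicing regulators had a median difference of 0.52, with 62 higher and 45 lower in Zfp521-CKO, 0 past an adjusted p of 0.05 with limma and 6 at an unadjusted p under 0.05 (beside the 5.58% of all genes). Dhx38, a helicase of the second step of splicing, was at 7.61, 6.98 and 12.61 in Zfp521-CKO and at 0 in all controls. Zrsr2, a relative of U2af1 that serves the minor spliceosome, was at 8.80, 9.23 and 9.54 against 0, 0 and 5.35. Ptbp1, the polypyrimidine tract repressor, was at 10.75, 10.84 and 8.91 against 5.76, 4.02 and 0, and Elavl1, which encodes HuR, at 9.69, 8.71 and 6.30 against 4.67, 0 and 2.31. All 4, named for the smallest p of the list, were higher in each Zfp521-CKO library than in any control. Their limma differences were 9.07, 7.41, 6.91 and 5.91, with an adjusted p of 0.61 each. Of the 107 genes, 10 were above every control in this way and 7 below, beside 7.17% and 2.05% of all genes tested. Dhx38 passed the threshold under voom, with weights per library and without Zfp521-CKO replicate 3, and Ptbp1 with weights. Of the other 2 at that unadjusted p, both lower and named after their values were seen, Sfpq, a nuclear splicing and paraspeckle protein, was at 9.77, 9.10 and 9.35 in Zfp521-CKO and 11.58, 12.09 and 11.77 in the controls. Its SDs were 0.34 and 0.26 (n = 3 each) and its difference -2.41 (SE 1.03, adjusted p = 0.61). The row of Sfpq is 1 of 70 in the table whose values are not all whole reads, and the groups did not overlap in any of these 70 rows. Lsm8, of the ring on U6 RNA, was at 8.97, 8.79 and 0 against 10.52, 12.92 and 11.10, a difference of -5.59, or -2.63 without Zfp521-CKO replicate 3. Ddx5 and Rbm39, which had the highest mean log2 counts of the list with no correction for length, differed by -1.04 and -0.19. The difference of Ddx5 was 0.37 under voom and 0.16 without Zfp521-CKO replicate 3, and that of Rbm39 was 0.091 with equal totals, 0.016 with quantile normalization, 0.37 under voom and 0.26 without Zfp521fl/fl replicate 3.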

How the data were processed

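Per the labels' protocols, RNA of sorted HSCs was purified with a column kit for small samples and sequenced by Illumina's usual library protocol. Bowtie, DESeq2 (version 1.26.0) and build mm9 are listed in the submitters' processing notes without roles; how reads were counted, and whether by strand, is not given in the sources used here. Although named as FPKM, the deposited table holds log2 values: once un-logged and less 1, each value is a whole multiple of a step that differs by library and not by gene, so the unit is log2(normalized count + 1), with no correction for length. At a tolerance of 0.001 read, 99.7% of 61139 values above 0 were whole reads. The other 213 values lay in 70 genes, none of them a member and 2 among the other splicing genes; these rows were left out of read shares and totals.

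With limma 3.58.1 (R 4.3.3, lmFit, eBayes with trend) the deposited values were tested with genotype as the only term, two-sided, over the 16436 genes with a mean normalized count of at least 1, with Benjamini-Hochberg adjustment over all of them and a threshold of 0.05. A difference of log2(normalized count + 1) can understate the change of low genes. Differences are Zfp521-CKO minus Zfp521fl/fl. The code of the fit was checked on counts drawn with known changes. Those counts lacked the differences in composition between these libraries, so the check does not show how well the fit suits these data. The values of 1 member, which enters the counts and medians, are not reported here. Members and lists were chosen with earlier results of these data known; 107 of 108 entries of the list of other splicing genes matched a row, and 7 lists of cell type markers were used.

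Named members are, in each of 7 role groups, the 2 of smallest unadjusted p and the 2 of highest mean, those with reads in all 6 libraries whose groups do not overlap, and Sf3b1, Srsf2, U2af1, Prpf8, Srsf1, Srsf3, Hnrnpa1, Hnrnpa2b1, Hnrnpk and Hnrnpu; of the other list, the 4 of smallest p and the 2 of highest mean. In all, 17 alternatives were run: another pseudocount (0.1), 3 other filters, 3 other scalings, weights per library, voom on the recovered reads, the replicate number as a block, the table without the 70 rows, and leaving out each of the 6 libraries.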

Additional observations from a re-analysis of the deposited data

How the results depend on the processing

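Of 16436 genes tested, 0 were called with limma as reported, and in the alternatives 17 with quantile normalization, 161 with voom on the recovered reads, 1660 with weights per library (Zfp521-CKO replicate 3 received 0.239) and 0 to 2530 when a library was left out, the highest without Zfp521-CKO replicate 3. Members called were 1, Prpf4, under voom, under weights per library and without Zfp521-CKO replicate 3, and 0 to 1 over the fits without a library. Members at an unadjusted p under 0.05 numbered 1 as reported, 2 without a filter, 0 among genes with reads in all 6 libraries, 3 with quantile normalization, 2 with the replicate block, 5 under voom, 6 with weights and 1 to 5 without a library. The median difference of all members was 0.95 under voom and 0.09 to 0.84 without a library. That of snRNP members was 1.62 under voom, 1.66 with weights and 0.36 to 1.70 without a library, that of SR members 0.086 to 1.13 without a library, and that of hnRNP members 0.035 under voom and -0.96 to -0.21 without a library. The median over all genes tested was 1.63, and was 0.22 with quantile normalization and 1.82 with equal totals.

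Some single genes turned sign. Under voom this was so for Ddx5 (0.37), Hnrnpk (0.33), Rbm39 (0.37) and Srsf7 (0.38). Rbm39 was at 0.091 with equal totals and 0.016 with quantile normalization, U2af1 at -0.048 with quantile normalization, and Srsf3 at -0.04 with median-ratio scaling and -0.14 with weights. Over the fits without a library, differences spanned -1.73 to 0.16 for Ddx5, -0.70 to 0.86 for Hnrnpab, -2.04 to 0.17 for Hnrnpk, -0.11 to 0.60 for Hnrnpu, -0.44 to 0.26 for Rbm39, -0.38 to 1.05 for Sf3b1, -0.21 to 0.24 for Srsf2, -0.15 to 0.18 for Srsf3, -2.31 to 3.36 for Srsf9 and -2.02 to 3.81 for U2af1. In a further 7 cases a gene passed the threshold, Dhx38 and Prpf4 under voom, with weights and without Zfp521-CKO replicate 3, and Ptbp1 with weights, and 613 values kept direction and side of the threshold. The cause was not tested.

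Deviations of same-numbered libraries correlated weakly, at 0.12, -0.003 and -0.03 over 3070 genes, and only replicate 1 correlated best with its own number. These values cannot show whether libraries of the same number were processed together. With the replicate block, 0 genes and 0 members were called. Depth limits low genes most in Zfp521-CKO replicate 3, where 3 reads are a log2 value of 3.96.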
